A study of Mus musculus with 4 samples.

Results

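The 38 genes described here encode proteins that take up, activate, build, store, release and burn fatty acids and triglycerides. They were listed by gene symbol, each was present in all 4 deposited tables, and together they make up 38 of the 17934 genes measured. Testes came from male C57BL/6 mice that carried either no functional copy of Tas1r3 (genotype Tas1r3-/-, here KO) or the wild-type gene (Tas1r3+/+, here WT). Both genotypes had been fed a western diet for 18 weeks, and each was represented by 2 libraries. Tas1r3 encodes the subunit that sweet and umami taste receptors have in common, and the question was how its loss alters testicular gene expression under that diet. No group on another diet was analysed here, and the sources used here do not give the age of the mice. The labels do not state whether the libraries are from different animals. P-values here set the difference between genotypes against the spread between the libraries of a genotype, estimated in part from all genes. That spread may be technical.

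Fatty acids enter cells with the help of lipoprotein lipase and the scavenger receptor CD36, are carried by binding proteins and are joined to coenzyme A by acyl-CoA synthetases. The resulting acyl-CoA is elongated and desaturated, esterified into triglyceride for storage in droplets, or passed into mitochondria through the carnitine shuttle for beta-oxidation. In the testis, Sertoli cells burn fatty acids and store droplets, while developing germ cells build membranes rich in very long polyunsaturated fatty acids.

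The KO libraries were the shallower ones, with an estimated 748637 and 597936 assigned reads in KO, against 1719356 and 1807694 in WT, so that 1 read was worth 1.34 and 1.67 CPM (counts per 1000000 assigned reads) in KO and 0.582 and 0.553 CPM in WT. Values below are given for replicate 1 and then replicate 2 of each genotype. Tas1r3 itself stood at 1.34 and 0 CPM in the KO libraries, against 13.8 and 20.5 CPM in the WT libraries. Its KO libraries held 1 estimated read in all, against 61 in the WT libraries, a ratio scaled by depth of 0.0429 (95% exact interval 0.00107 to 0.248), and the library labels and the targeted gene went the same way, although the limma fit described below gave it an adjusted p of 0.627. That adjusted p was 0.000277 with the replicate block, 1.31e-07 without KO replicate 1, 2.03e-05 without KO replicate 2, and from 0.281 to 1 under the other alternatives. All 10 spermatid, 8 spermatocyte, 8 Sertoli cell and 8 Leydig cell markers on fixed lists were measured. The summed spermatid markers reached 23835 and 34911 CPM in the KO libraries, against 28069.8 and 27923 CPM in the WT libraries, and the summed spermatocyte markers 1124 and 916 CPM in the KO libraries, against 871 and 857 CPM in the WT libraries. The summed Sertoli cell markers were 1564 and 1266 CPM in the KO libraries, against 1466 and 1479 CPM in the WT libraries, and the summed Leydig cell markers 1650.4 and 1697 CPM in the KO libraries, against 1810.4 and 1899 CPM in the WT libraries. None of the marker genes on any list was called. Other cells that the tissue could hold were represented at lower levels. The 5 adipose markers tested of 8 listed summed to 17.7 and 26.1 CPM in the KO libraries, against 45.6 and 15.2 CPM in the WT libraries, and Lep and Ucp1 were not measured. Spermatogonia markers (7 of 8 measured) summed to 147 and 148 CPM in the KO libraries, against 128 and 116 CPM in the WT libraries. Of these, Stra8, Dmrt1 and Uchl1 were higher in both KO libraries, and Sall4 and Gfra1 lower in both. Sall4 was at or near 0 in KO, against 12.1 and 7.15 CPM in WT. Epididymis markers (4 of 8 measured) summed to 198 and 134 CPM in the KO libraries, against 203 and 261 CPM in the WT libraries. Most of that was Lcn2, at 192 and 130 CPM in KO and 157 and 257 CPM in WT. Crisp1 stood at 40.7 CPM in WT replicate 1 and at 0 elsewhere. Adam7 was also highest in WT replicate 1, and Rnase10 lowest there. Macrophage (7 of 8 measured) and endothelium markers (6 of 8) summed to at most 59.7 and 43.0 CPM in KO and at most 61.2 and 45.9 CPM in WT. Red blood cell markers (5 of 6) summed to 35.8 and 53.9 CPM in the KO libraries, against 47.8 and 186 CPM in the WT libraries.

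Not one of the 38 genes was called in the comparison of KO with WT. Differences were tested with limma on log2(CPM + 1) over the 17654 genes averaging 1 CPM or more, and a gene was called at a Benjamini-Hochberg adjusted p under 0.05. All 38 passed that level filter, the smallest adjusted p among them by limma was 0.950, and 0 of them had an unadjusted p under 0.05. The background was itself nearly empty: 1 gene was called in the whole fit (0.00566%), the patched-family gene Ptchd3, and 4.33% of all genes tested had an unadjusted p under 0.05. The 38 genes summed to 4043 and 3968 CPM in the KO libraries, against 4175 and 4087 CPM in the WT libraries. In all, 16 were higher in KO and 22 lower by mean log2 value (42.1% higher, against 44.9% over all genes tested), and their median log2 difference was -0.01, against -0.04 over all genes tested. The libraries of the genotypes did not overlap for 12 of the 38 (31.6%), 3 higher and 9 lower in KO, where 34.3% of all genes tested did not overlap (15.1% higher and 19.2% lower in KO). In whole-tissue RNA, fewer cells of a type and less RNA per cell cannot be told apart.

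**Figure D1:**
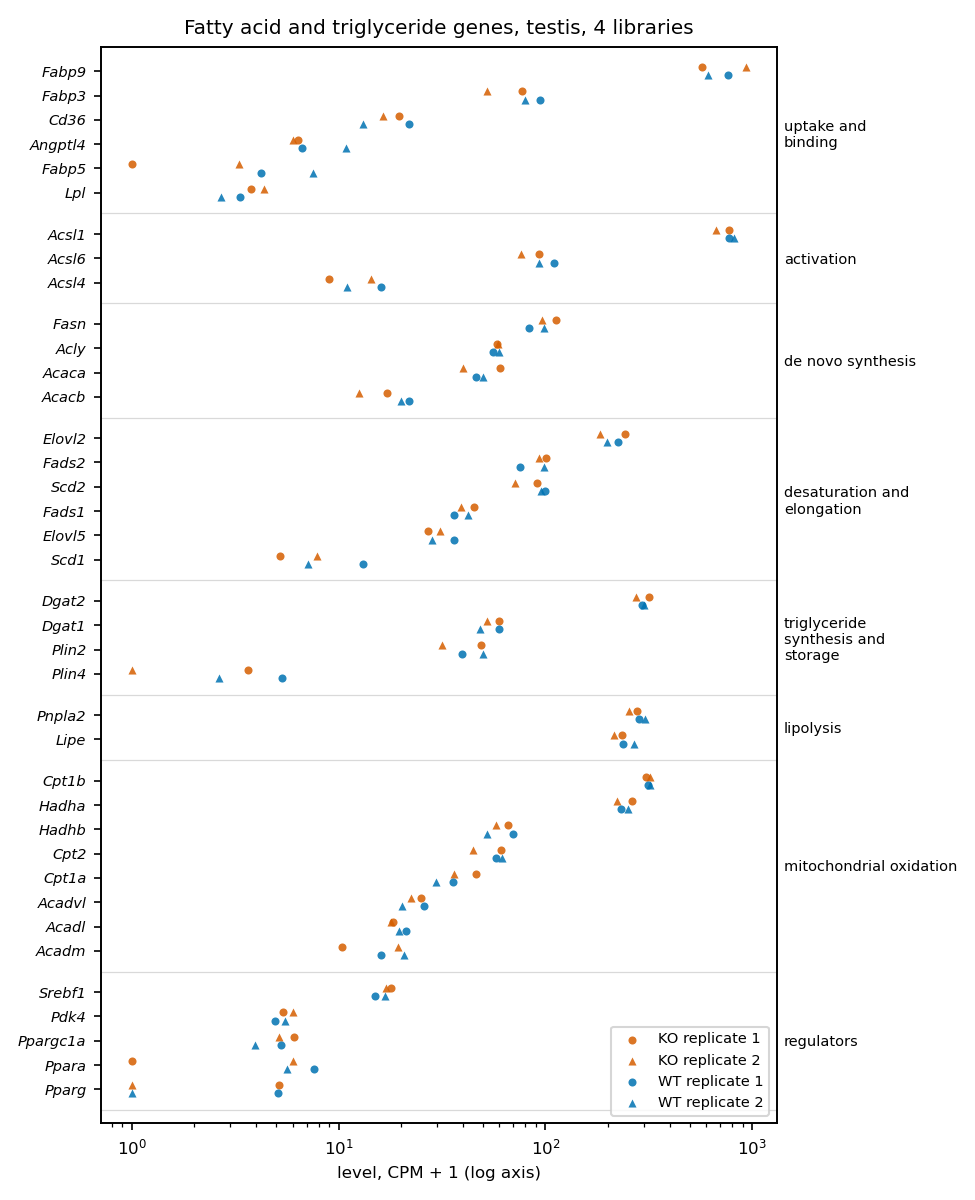
Level of each of the 38 genes in each library, as CPM + 1 on a log axis, with KO in orange above WT in blue and replicates 1 and 2 as circles and triangles. Genes are grouped by role. The levels span from Fabp9 and Acsl1, at 568 to 932 CPM, down to genes listed at 0 in 1 library, and KO and WT points intermingle for 26 of the 38 genes.

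How much the data could show depended on the level. For the 17 genes averaging 50 CPM or more, every 95% limma interval of the KO minus WT difference lay between -0.96 and 0.60 on the log2(CPM + 1) scale, so log2 differences of 1 or more in size were outside the interval for each of these genes. Of the 12 genes at 10 to 50 CPM, 9 had an interval inside -1 to 1, and Acsl4, Acacb and Acadm did not. None of the 9 genes under 10 CPM did, so for these a log2 difference of 1 lay within the interval. All 38 intervals included 0. The median distance between the libraries of a genotype over the 38 genes was 0.24 in KO and 0.26 in WT on the same log2 scale. With counting error alone, the interval of the KO to WT ratio of reads excluded 1 for Fabp3, Fabp5 and Acsl1. Those read intervals cover counting error only and leave out the spread between libraries.

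**Figure D2:**
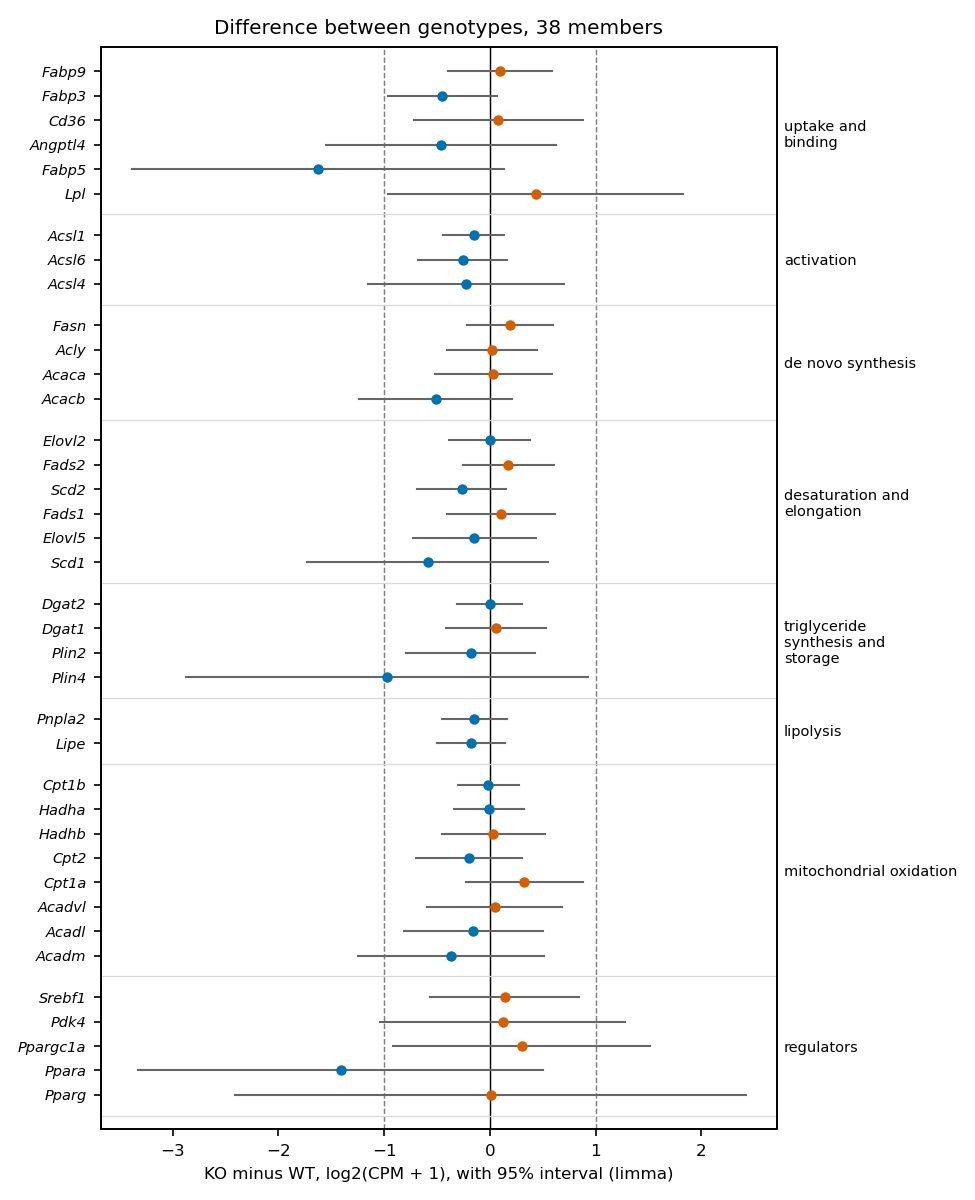
KO minus WT difference of log2(CPM + 1) for each of the 38 genes, grouped by role, with its 95% limma interval as a bar. Points are orange where the mean was higher in KO and blue where it was lower, dashed lines mark -1 and 1, and all 38 bars cross 0, with 26 lying wholly between the dashed lines.

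**Figure D3:**
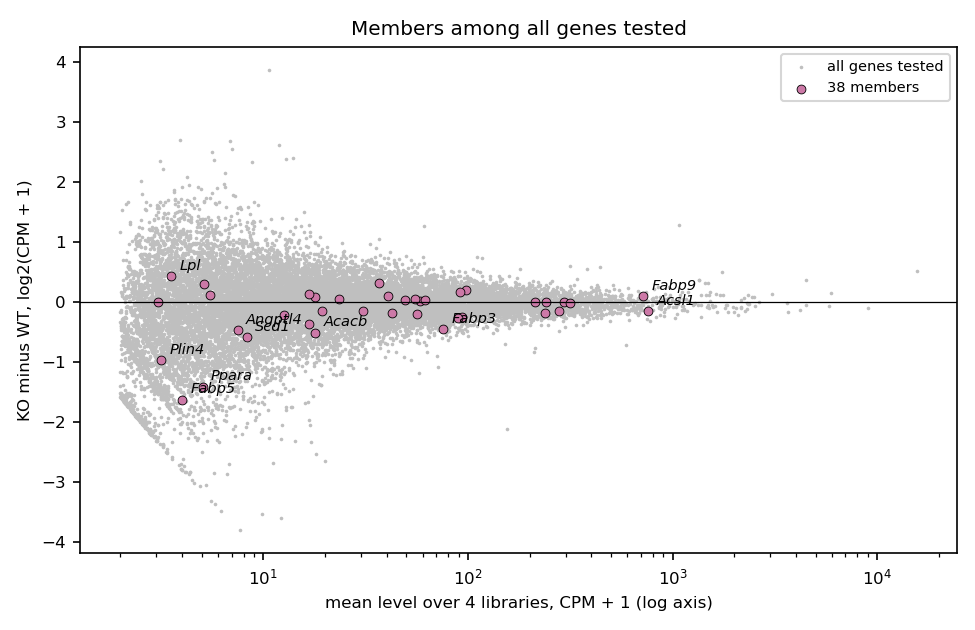
KO minus WT difference of log2(CPM + 1) against the mean level as CPM + 1 on a log axis, for all 17654 genes tested in grey and for the 38 genes in pink. The 38 lie within the grey cloud, the scatter of which widens towards low levels, and Fabp5 and Ppara at the low end have the largest negative differences among them, -1.63 and -1.41.

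Among the 6 uptake and binding genes, 3 had a higher and 3 a lower mean in KO. Fabp9, which encodes a fatty acid binding protein known in rat from the perforatorium of sperm and has the highest level of the 38 per kb of transcript, stood at 568 and 932 CPM in the KO libraries, against 760.2 and 607 CPM in the WT libraries. Its means were 749.6 ± 257 CPM in KO and 684 ± 108 CPM in WT (SD, n = 2 each), and the KO pair spanned more than the whole WT pair, with 1 KO library below and 1 above both WT libraries. The log2 difference was 0.10 (SE 0.22, 95% interval -0.40 to 0.59). The sum of the 10 spermatid markers was likewise highest in KO replicate 2 and lowest in KO replicate 1. Singly, only Tnp1, Prm1 and Prm2 had both these extremes. Odf1 was lowest in KO replicate 2, and Acrv1 and Tssk6 were highest in a WT library. The part of these markers in the Fabp9 values was not tested.

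Fabp3, the heart-type fatty acid binding protein, was measured at 76.1 and 50.9 CPM in the KO libraries, against 93.00 and 78.5 CPM in the WT libraries. Both KO libraries lay below both WT libraries, KO replicate 1 by a narrow margin. Means were 63.5 ± 17.8 CPM in KO and 85.7 ± 10.3 CPM in WT (SD, n = 2 each), the log2 difference was -0.45 (SE 0.23, 95% interval -0.96 to 0.06) with an unadjusted limma p of 0.0793, and 87 estimated reads in KO against 302 in WT gave a depth-scaled ratio of 0.755 (95% exact interval 0.587 to 0.961). Fabp5, the epidermal-type family member, rested on 1 estimated read in KO and 17 in WT, at 0 and 2.32 CPM in the KO libraries, against 3.20 and 6.55 CPM in the WT libraries. Its unadjusted limma p of 0.0657 was the smallest of the 38, with a log2 difference of -1.63 (SE 0.78, 95% interval -3.39 to 0.13). Its depth-scaled read ratio was 0.154 (95% exact interval 0.00369 to 0.983). Calls for these 3 binding protein genes appeared in fits that left out 1 KO library and so took their spread from the WT pair alone. Without KO replicate 1, Fabp3 (-0.73, adjusted p = 0.0111) and Fabp9 (0.45, adjusted p = 0.0083) were called by limma, in a fit that called 5.4% of all genes. Without KO replicate 2, Fabp5 was called (-2.49, adjusted p = 0.0382) in a fit that called 2.34%, and the Fabp9 difference turned to -0.26. Over all alternatives the adjusted limma p ran from 0.0111 to 1 for Fabp3, from 0.0382 to 1 for Fabp5 and from 0.0083 to 1 for Fabp9. The Fabp3 gene overlaps Zcchc17 on the genome, and the sources used here do not give whether reads were counted by strand.

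Lpl, lipoprotein lipase, which frees fatty acids from circulating triglyceride, was near the floor at 2.77 and 3.34 CPM in the KO libraries, against 2.33 and 1.71 CPM in the WT libraries. These are 4 estimated reads in KO and 7 in WT, with a ratio of 1.497 (95% exact interval 0.321 to 5.89). Both KO values were above both WT values, but by no more than about the worth of 1 KO read, and the log2 difference was 0.43 (SE 0.62, 95% interval -0.96 to 1.82). Of the other uptake genes, the LPL inhibitor Angptl4 had a log2 difference of -0.46 (95% interval -1.55 to 0.62). Both KO libraries were below both WT libraries, but KO replicate 1 at 5.34 CPM lay close under WT replicate 1 at 5.66 CPM. With 7 estimated reads in KO and 28 in WT, its read ratio had a 95% exact interval of 0.241 to 1.53. The fatty acid receptor gene Cd36 had a log2 difference of 0.08 with overlapping libraries.

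The 3 acyl-CoA synthetases, which trap fatty acids as acyl-CoA, all had a lower mean in KO, by log2 differences of -0.26 to -0.15, none of which passed the test. Acsl1 stood at 771 and 665 CPM in the KO libraries, against 775 and 819 CPM in the WT libraries. The KO libraries were both lower, with KO replicate 1 and WT replicate 1 close together, and the log2 difference was -0.15 (SE 0.13, 95% interval -0.44 to 0.13). With 975 estimated reads in KO and 2813 in WT, its read ratio was 0.908 (95% exact interval 0.843 to 0.977), a counting interval that lies below 1. Acsl6, a synthetase of germ cells and neurons that favours polyunsaturated fatty acids, stood at 92.6 and 75.5 CPM in the KO libraries, against 108 and 92.3 CPM in the WT libraries. Its genotypes overlapped, with KO replicate 2 lowest, and the log2 difference was -0.26 (SE 0.19, 95% interval -0.68 to 0.16). Acsl4, which prefers arachidonic acid, had a log2 difference of -0.22 with overlapping libraries.

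De novo synthesis begins with ATP citrate lyase, which makes cytosolic acetyl-CoA and is encoded by Acly (chr11:100367178-100418827 on the minus strand, mm39). The gene as a whole was level between genotypes, at 57.4 and 57.9 CPM in the KO libraries, against 55.1 and 58.9 CPM in the WT libraries, with overlapping libraries and a log2 difference of 0.02 (SE 0.19, 95% interval -0.41 to 0.44). The values of its 2 listed transcripts were far apart between genotypes. They differ by a 30-base cassette exon, exon 14 of 29 in the longer one. On GRCm38, the build of the reference used for the sequence (GENCODE M21 transcripts of Acly), the exon lies at chr11:100503160-100503189 on the minus strand, within the coding part, and its length is a multiple of 3. The junctions are shown because they hold every base that separates the 2 transcripts, with the cassette exon in capitals between 20-base flanks from the neighbouring exons, each 5′ to 3′ on the transcript.
Acly with the cassette exon, NM_001199296: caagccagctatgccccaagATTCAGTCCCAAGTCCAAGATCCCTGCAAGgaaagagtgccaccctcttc
Acly without it, NM_134037: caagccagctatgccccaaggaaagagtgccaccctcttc

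The transcript with the exon was listed at 6.94 and 5.19 CPM in the KO libraries, against 35.4 and 40.04 CPM in the WT libraries. These values equal an estimated 5.2 and 3.1 reads in KO against 60.9 and 72.4 in WT. Such estimates are not counts of reads that touch the exon. KO values were far below WT values. The transcript without it went the other way, at 50.5 and 52.7 CPM in the KO libraries, against 19.6 and 18.9 CPM in the WT libraries. These equal an estimated 37.8 and 31.5 reads in KO against 33.7 and 34.2 in WT. As a share of the gene, the transcript with the exon took 12.1% and 8.96% in the KO libraries, against 64.4% and 67.9% in the WT libraries. The libraries of a genotype lay within 3.12 percentage points of each other in KO and 3.57 in WT, well inside the distance between the genotypes. Non-overlapping shares were common, at 35.3% of the 16526 transcripts whose share could be tested. That percentage counts any gap, however small, and none was computed for gaps as wide as that of Acly.

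That difference was put to 3 tests, and they did not give 1 answer. In the limma fit per transcript over 28243 transcripts, which was the planned one, the transcript with the exon had a log2 difference of -2.46 (SE 0.38, adjusted p = 0.661) and the one without it 1.38 (SE 0.26, adjusted p = 0.661), and 0 transcripts were called (0%), with 6.26% at an unadjusted p under 0.05. The other 2 tests were added after the values had been seen. limma's diffSplice, run first, called the Acly pair (adjusted p = 0.00839) together with 3.11% of the 16526 transcripts tested, but it treats the transcripts of a gene as independent when they divide the same reads. Its adjusted p ranged from 0.0078 to 0.0942 over the alternatives. limma on the log2 ratio of the transcript with the exon to the one without, with 1 value per library, gave a difference of -3.84 (SE 0.38, 95% interval -5.07 to -2.61) with an unadjusted p of 0.00223 and an adjusted p of 0.232, which ranged from 0.155 to 0.710 over the alternatives. That ratio test called 0 of 16526 transcripts (0%), with 9.86% at an unadjusted p under 0.05. Leaving out WT replicate 1 or WT replicate 2 ended the diffSplice call (adjusted p = 0.0942 and 0.0905), while leaving out KO replicate 1 or KO replicate 2 did not (adjusted p = 0.0237 and 0.0312). Only reads that touch these 30 bases or their junctions tell the transcripts apart, and the tables do not give how many did. The sources used here do not give how the software divided the other reads, and its part in the shares was not tested.

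**Figure D4:**
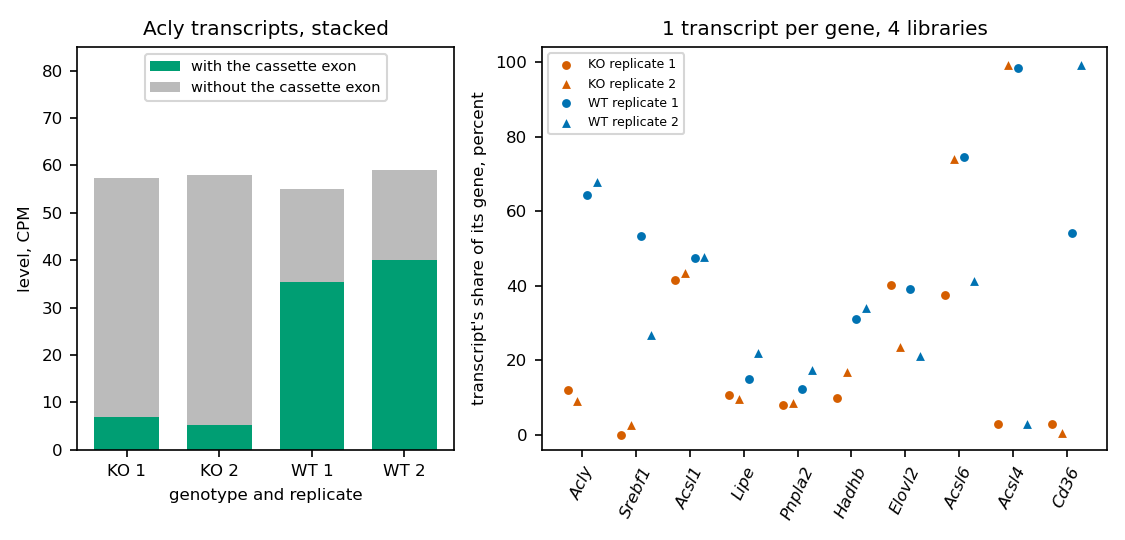
Left, level of the Acly transcripts in CPM, stacked for each library, with the cassette exon in green and without it in grey. Right, share in percent that 1 listed transcript takes of each of 10 genes, with KO in orange and WT in blue and replicates 1 and 2 as circles and triangles. The Acly total is alike in the 4 libraries, and the share with the exon is at or under 12.1% in KO and at or over 64.4% in WT. Between libraries of a genotype, the Acsl4 share differs by 96.1 percentage points in KO and 95.4 in WT. The share of the Cd36 transcript shown differs by 2.44 points in KO and 45.0 in WT.

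The remaining synthesis genes showed no call. Fasn, fatty acid synthase, stood at 112 and 94.9 CPM in the KO libraries, against 82.7 and 97.7 CPM in the WT libraries. The highest value was KO replicate 1 and the genotypes overlapped, with a log2 difference of 0.19 (SE 0.18, 95% interval -0.21 to 0.60). Acacb encodes the acetyl-CoA carboxylase at the mitochondrial surface, whose malonyl-CoA restrains fatty acid import, and was measured at 16.2 and 11.5 CPM in the KO libraries, against 20.8 and 19.1 CPM in the WT libraries. Both KO libraries were below both WT libraries, and the log2 difference was -0.51 (SE 0.32, 95% interval -1.24 to 0.21) with an unadjusted limma p of 0.145. Acaca, its cytosolic counterpart in synthesis, had a log2 difference of 0.03 with overlapping libraries.

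The desaturases and elongases include the enzymes that make the very long polyunsaturated fatty acids of sperm. Elovl2, whose loss makes male mice infertile, was level at 240.4 and 182 CPM in the KO libraries, against 223 and 197 CPM in the WT libraries, with overlapping libraries and a log2 difference of 0.00 (SE 0.17, 95% interval -0.39 to 0.38). Scd2, a stearoyl-CoA desaturase that makes monounsaturated fatty acids, stood at 90.3 and 70.1 CPM in the KO libraries, against 98.4 and 93.8 CPM in the WT libraries. The KO pair lay below the WT pair, with a log2 difference of -0.27 (SE 0.19, 95% interval -0.69 to 0.15). Scd1, the family member best known from liver and fat, was low at 4.21 and 6.87 CPM in the KO libraries, against 12.1 and 6.09 CPM in the WT libraries. Its genotypes overlapped, WT replicate 1 stood above the rest, and the log2 difference was -0.59 (SE 0.50, 95% interval -1.73 to 0.55). In the same WT library 3 of the 6 measured fat cell markers were also highest, Cfd, Cidec and Fabp4 at 11.7, 7.86 and 7.03 CPM, while Plin1 was highest in KO replicate 1 and Adipoq and Retn in KO replicate 2. The summed adipose markers, listed above, were highest there too, and their part in the Scd1 values was not tested. The desaturases Fads1 and Fads2 and the elongase Elovl5 had overlapping libraries and log2 differences from -0.15 to 0.17.

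Triglyceride synthesis and storage genes overlapped between genotypes in all 4 cases. Dgat2, a diacylglycerol acyltransferase that adds the last acyl chain, was measured at 317 and 274 CPM in the KO libraries, against 292 and 299 CPM in the WT libraries. The log2 difference was 0.00 (SE 0.14, 95% interval -0.31 to 0.31). Plin2, a coat protein of lipid droplets, stood at 47.8 and 30.6 CPM in the KO libraries, against 38.6 and 49.1 CPM in the WT libraries. KO replicate 2 was the lowest library and the log2 difference was -0.18 (SE 0.27, 95% interval -0.79 to 0.43). Plin4, a droplet coat protein of fat cells, rested on 2 estimated reads in KO and 10 in WT, at 2.65 and 0 CPM in the KO libraries, against 4.32 and 1.65 CPM in the WT libraries. The ratio of its reads was 0.524 (95% exact interval 0.0558 to 2.46), and WT replicate 1 was again the highest library. Plin4 overlaps Hdgfl2 on the opposite strand. Dgat1, the other acyltransferase of this step, had a log2 difference of 0.06.

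Both lipolysis genes had lower values in both KO libraries than in both WT libraries, by differences that did not pass the test. The same held for 19.2% of all genes tested, which were lower in KO without overlap. Pnpla2, adipose triglyceride lipase, which removes the first fatty acid, was measured at 276 and 252 CPM in the KO libraries, against 283 and 302 CPM in the WT libraries. KO replicate 1 lay close under WT replicate 1, and the log2 difference was -0.15 (SE 0.14, 95% interval -0.45 to 0.16). Lipe, hormone-sensitive lipase, without which male mice are sterile, stood at 232 and 213 CPM in the KO libraries, against 237 and 268 CPM in the WT libraries. KO replicate 2 was the lowest library and WT replicate 2 the highest, and the log2 difference was -0.18 (SE 0.14, 95% interval -0.50 to 0.14). Lipe overlaps 4732471J01Rik on the opposite strand.

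Of the 8 genes of mitochondrial oxidation, 3 had a higher and 5 a lower mean in KO. Cpt1b, the muscle-type carnitine palmitoyltransferase that admits acyl chains to mitochondria, was the most abundant of them, at 305 and 318 CPM in the KO libraries, against 311 and 319 CPM in the WT libraries. Its libraries overlapped and its log2 difference was -0.01 (SE 0.13, 95% interval -0.30 to 0.28). Cpt1a, the liver-type enzyme of the same step, stood at 45.04 and 35.1 CPM in the KO libraries, against 34.9 and 28.6 CPM in the WT libraries. Both KO libraries were above both WT libraries, KO replicate 2 by a narrow margin, and the log2 difference was 0.32 (SE 0.24, 95% interval -0.23 to 0.88). Acadm, medium-chain acyl-CoA dehydrogenase, was measured at 9.35 and 18.4 CPM in the KO libraries, against 15.1 and 19.8 CPM in the WT libraries. KO replicate 1 was low, KO replicate 2 lay between the WT libraries, and the log2 difference was -0.37 (SE 0.39, 95% interval -1.25 to 0.51). Cpt2, Acadl, Acadvl, Hadha and Hadhb, which encode the inner carnitine transferase, the long-chain and very-long-chain dehydrogenases and the subunits of the trifunctional protein, had log2 differences from -0.20 to 0.04, and of these only Acadl had genotypes that did not overlap. Cpt1b lies within the span of Gm44502 on the same strand, so that reads may have been divided between them.

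The 5 regulators were all low, from 2.07 CPM for Pparg to 15.7 CPM for Srebf1 as means over the 4 libraries. Srebf1, which encodes the transcription factor that drives lipogenic genes, stood at 16.9 and 16.04 CPM in the KO libraries, against 13.96 and 15.8 CPM in the WT libraries. Both KO libraries were above both WT libraries, by less than 1 read between the nearest, and the log2 difference was 0.14 (SE 0.31, 95% interval -0.56 to 0.84). Srebf1 overlaps Rai1 on the opposite strand. Ppara, the nuclear receptor that drives oxidation genes, rested on 3 estimated reads in KO and 20 in WT, at 0 and 5.02 CPM in the KO libraries, against 6.59 and 4.62 CPM in the WT libraries. KO replicate 2 lay between the WT libraries and the other KO library was listed at 0, with a read ratio of 0.393 (95% exact interval 0.0748 to 1.32). Without KO replicate 2, Ppara was called by limma (-2.71, adjusted p = 0.0144), in the fit that called 2.34% of all genes, and its adjusted p over all alternatives ran from 0.0144 to 1. Pparg, the nuclear receptor of fat cells, stood at 4.16 CPM in KO replicate 1 and 4.12 CPM in WT replicate 1, with no estimated read in either replicate 2. These are 3 estimated reads in KO and 7 in WT, with a ratio of 1.12 (95% exact interval 0.187 to 4.92). Ppargc1a, a coactivator of mitochondrial genes, was measured at 5.11 and 4.18 CPM in the KO libraries, against 4.28 and 2.96 CPM in the WT libraries, with overlapping libraries and a log2 difference of 0.30 (SE 0.54, 95% interval -0.91 to 1.51). Pdk4, the kinase that shuts off pyruvate oxidation, had a log2 difference of 0.12.

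Levels of different genes were compared as CPM per kb of transcript. On that scale the 38 genes ran from a mean of 1109 for Fabp9 to 0.376 for Plin4, 25 of them lay above the median of all genes (5.03 CPM per kb), and 8 were in the top decile. After Fabp9 came Acsl1 at 194, Dgat2 at 131, Fabp3 at 109.7, Cpt1b at 108, Pnpla2 at 105, Hadha at 88.7 and Lipe at 83.6 CPM per kb. Of the 37 pairs of neighbours in this order, 33 had overlapping ranges over the 4 libraries. The 4 pairs that stood apart were Fabp9 and Acsl1, Acsl1 and Dgat2, Lipe and Elovl2, and Elovl2 and Acsl6.

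Related genes of the list were compared in pairs, not all of which are alternatives for the same step. Within each pair below except Acadvl and Acadl, the same gene stood higher in every library of both genotypes. Per kb, Cpt1b stood 10.1 to 16.6 times above Cpt1a, and Dgat2 4.27 to 5.44 times above Dgat1. Scd2 stood 7.21 to 19.01 times above Scd1, and Elovl2 4.37 to 6.61 times above Elovl5. These ranges are over the 4 libraries, and each lies wholly above 1. Acsl1 stood 4.74 to 5.87 times above Acsl6 and 67.3 to 123 times above Acsl4, and Fabp9 7.86 to 19.3 times above Fabp3. Acaca exceeded Acacb 2.03 to 3.43 times, with the larger ratios in both KO libraries. The lipases kept a nearly fixed ratio, Pnpla2 standing 1.22 to 1.29 times above Lipe. Fads2 stood 2.52 to 2.89 times above Fads1. Acadvl and Acadl were close, at ratios of 0.929 to 1.23, with Acadvl higher in 3 of 4 libraries. Hadha and Hadhb, whose products form 1 enzyme complex, lie head to head on opposite strands of chromosome 5 with 271 bases between them, and Hadha was 2.56 to 3.71 times above Hadhb per kb.

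**Figure D5:**
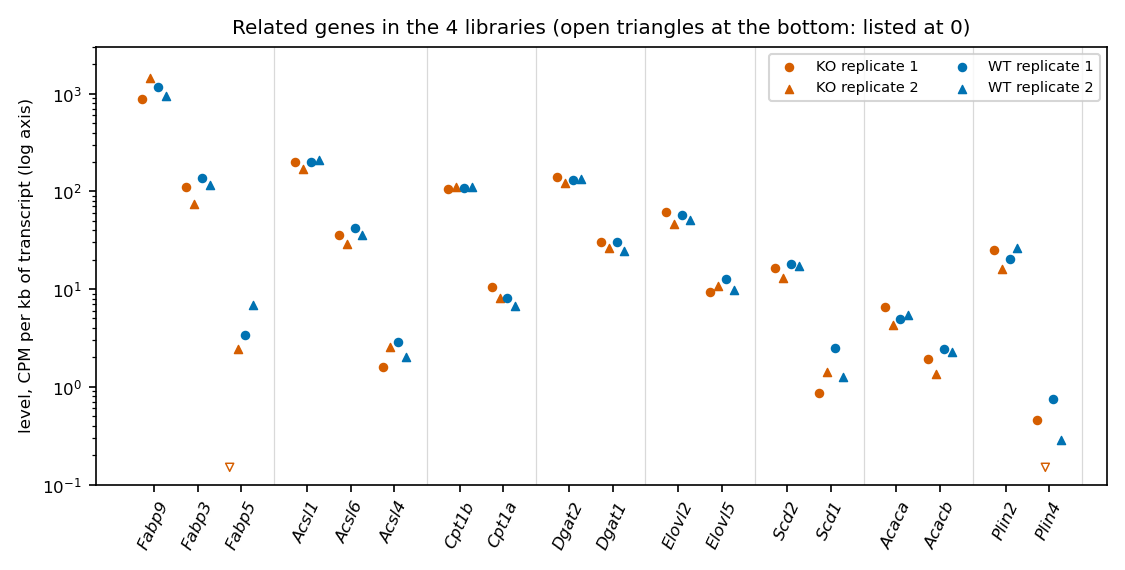
Level of related genes in CPM per kb of transcript on a log axis, for KO in orange and WT in blue, with replicates 1 and 2 as circles and triangles. Open triangles at the bottom mark libraries in which a gene was listed at 0. In each set the first gene is the highest in all 4 libraries, for example Cpt1b 10.1 to 16.6 times above Cpt1a.

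Of the 38 genes, 12 had more than 1 listed transcript, 33 transcripts in all, of which 28 could be tested against the rest of their gene. For 16 of these 28 the shares did not overlap between genotypes, against the background of 35.3% given for Acly, but the 16 include both Ppargc1a transcripts, whose shares were nearly identical in all 4 libraries. With a gap of at least 1 percentage point, chosen after seeing the data, the count was 14 of 28, against 25.6% of the 16526 transcripts. These 14 belong to Acly, Acsl1, Cd36, Hadhb, Lipe, Pnpla2 and Srebf1, and transcripts of a gene divide the same reads. By the ratio test, 6 had an unadjusted limma p under 0.05 (against 9.86% of all transcripts tested) and 0 were called. The 6 were the 2 of Acly, 2 of Srebf1, 1 of Hadhb and 1 of Cd36, the last among shares that were unstable within a genotype. diffSplice called 4 (against 3.11% of all), the 2 of Acly and 2 of Srebf1. The Srebf1 transcript from the shorter gene span, NM_001358314, was measured at 0.0121 and 0.430 CPM in the KO libraries, against 7.46 and 4.24 CPM in the WT libraries. It was at or near 0 in both KO libraries, but the WT values rest on an estimated 12.8 and 7.7 reads. Its share of the gene was 0.0719% and 2.68% in the KO libraries, against 53.4% and 26.9% in the WT libraries, and its log2 ratio to the other tested transcript differed by -3.40 (SE 0.73, adjusted p = 0.345 by limma). By limma's diffSplice its adjusted p was 0.0414. That call held after thinning (adjusted p = 0.0413) and was lost with a pseudocount of 0.1 CPM (adjusted p = 0.0877), without KO replicate 1 (0.117), KO replicate 2 (0.0862), WT replicate 1 (0.172) or WT replicate 2 (0.0936), and with the replicate block (0.148).

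Smaller share differences that kept the genotypes apart were seen in the lipases, in Hadhb and in Acsl1. The Lipe transcript with the longer gene span, NM_010719, took 10.8% and 9.57% in the KO libraries, against 15.1% and 21.96% in the WT libraries. The non-coding Pnpla2 transcript NR_028142 took 8.05% and 8.61% in the KO libraries, against 12.2% and 17.4% in the WT libraries. In both lipases the most used transcript had the higher share in KO. The Hadhb transcript NM_145558 took 9.87% and 16.8% in the KO libraries, against 30.95% and 34.1% in the WT libraries. The Acsl1 transcript with the shorter gene span, NM_001302163, took 41.5% and 43.5% in the KO libraries, against 47.5% and 47.7% in the WT libraries. None of these transcripts was called by the ratio test or by diffSplice. For other genes the division of reads was unstable between libraries of 1 genotype: the largest share difference within KO was 96.1 points for Acsl4, 98.1 for Cd36, 38.1 for Acsl6 and 16.6 for Elovl2, against 95.4, 45.0, 33.2 and 18.0 points within WT. The Srebf1 shares described above also differed by up to 8.07 points within KO and 26.6 points within WT. Apart from the counts above, no share of Acsl4, Cd36, Acsl6 or Elovl2 is compared between genotypes.

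Around the 38, a wider list of 168 other genes of fatty acid and triglyceride metabolism also held no called gene. Of these, 155 were measured, 154 were tested and 0 were called, with 4 at an unadjusted limma p under 0.05, 67 with a higher and 87 with a lower mean in KO and a median log2 difference of -0.05. The libraries did not overlap for 56 of 154 (36.4%, against 34.3% over all genes tested). The 4 were Pprc1, Hsd17b12, Pdk1 and Gpat2. Pprc1, a coactivator related to PGC-1, stood at 11.4 and 8.36 CPM in the KO libraries, against 19.9 and 21.3 CPM in the WT libraries. The genotypes did not overlap, and the log2 difference was -1.003 (SE 0.33, 95% interval -1.76 to -0.25). Hsd17b12, the ketoacyl reductase of the elongation cycle, stood at 17.4 and 15.1 CPM in the KO libraries, against 5.43 and 10.5 CPM in the WT libraries. KO was higher in both libraries, with a log2 difference of 0.997 (SE 0.41, 95% interval 0.07 to 1.92). Pdk1, a pyruvate dehydrogenase kinase, was measured at 5.36 and 10.03 CPM in the KO libraries, against 14.8 and 15.8 CPM in the WT libraries, with a log2 difference of -0.96. Gpat2, a glycerol-3-phosphate acyltransferase gene of male germ cells, was the most abundant of the 4, at 68.1 and 81.9 CPM in the KO libraries, against 57.4 and 51.4 CPM in the WT libraries. Both KO libraries exceeded both WT libraries, with a log2 difference of 0.45 (SE 0.20, 95% interval 0.01 to 0.89).

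The other 6 of the 10 genes with the smallest p on the wider list were Amacr, Acot1, Ehhadh, Fabp12, Thrsp and Ppargc1b. Fabp12, a gene of the same binding protein family, stood at 59.95 and 69.3 CPM in the KO libraries, against 38.9 and 53.6 CPM in the WT libraries, with both KO libraries above both WT libraries. Amacr, the racemase of branched-chain oxidation, did not overlap between genotypes either, at 5.44 and 11.7 CPM in the KO libraries, against 2.46 and 3.32 CPM in the WT libraries. Acot1, an acyl-CoA thioesterase gene, had 0 estimated reads in KO and 9 in WT, Ehhadh 1 in KO and 13 in WT, and Thrsp 1 in KO and 14 in WT. The read ratios of Ehhadh and Thrsp were 0.201 (95% exact interval 0.00474 to 1.34) and 0.187 (95% exact interval 0.00442 to 1.23), intervals that include 1. Ppargc1b, the sister gene of Ppargc1a, was at 4.02 and 4.01 CPM in the KO libraries, against 7.18 and 10.9 CPM in the WT libraries. Without KO replicate 1, limma called 6 genes of the wider list, Pprc1 among them, in a fit that called 5.4% of all genes. Without KO replicate 2 it called 3 (Hacd1, Srebf2 and Pdk1), where 2.34% of all genes were called, and no gene was in both sets. Without WT replicate 1 or WT replicate 2 it called 0.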

How the data were processed

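RNA-seq libraries from the testes of 2 KO and 2 WT samples took their genotype and replicate number from the sample titles. Per the submitters' processing notes, STAR, Partek and the mouse build mm39 were used, and their versions and roles are not given in the sources used here. The authors deposited 1 value per RefSeq transcript (29342) and library. Each deposited column sums to 1000000, from which the unit was inferred to be CPM. The commonest low values are multiples of a step that does not depend on length, taken as the CPM of 1 read. Within 0.01 reads, 20.6% to 45.8% of genes per library held whole reads, so no count model was fitted, and estimated reads are CPM divided by that step.

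Transcripts were summed per gene symbol, with 10 symbols on several chromosomes kept apart. The KO and WT libraries were compared on log2(CPM + 1) with limma 3.58.1 (R 4.3.3), two-sided and with its mean-variance trend, over features averaging 1 CPM or more. Calls were made at an adjusted p under 0.05, by Benjamini-Hochberg over all genes or transcripts tested. Fold changes on this scale understate the change of low genes. Read ratios carry exact conditional 95% intervals, which cover counting error only, since reads carry no molecular identifiers. Values per kb use the deposited transcript lengths. The 38 genes, their roles, the marker lists and the wider list were chosen with earlier results of these data known. Given in full were, per role, the 2 genes of smallest unadjusted p and the most abundant one, and any gene averaging under 3 estimated reads in a genotype. On the wider list these were the 10 genes with the smallest p. Acly, Srebf1 and other transcripts described outside that rule were chosen after their values were seen. Sequences are GENCODE M21 transcripts on GRCm38, and no coordinates were converted between builds. The limma fit per gene and the transcript ratio test were tried on simulated data, and diffSplice and the read intervals were not. Figures were drawn with matplotlib 3.10.9.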

Additional observations from a re-analysis of the deposited data

How the results depend on the processing

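Alternatives were pseudocounts of 0.1 and 5 CPM, no level filter, a mean of at least 5 CPM, TMM or quantile scaling, no mean-variance trend, an adjusted p under 0.1, the replicate number as a block, each library left out and estimated reads thinned to the shallowest library. For transcripts, thinning and the alternatives of the share tests were added after seeing the data. No count model was run, since whole reads were not recovered. Replicate numbers were not taken to pair the libraries in the main fit. The labels state no pairing, and deviations of same-numbered libraries correlated at -0.03 over 7364 genes. With 2 libraries per genotype, that value cannot exclude a pairing. The genes called, 1 in all, became 0 with a pseudocount of 0.1 CPM, without the trend and after thinning, 24 with the replicate block, and 0 to 954 with 1 library left out. Calls among the 38 were 0 to 2 and their median difference -0.11 to 0.0215 with 1 library left out, and calls on the wider list 0 to 6. The diffSplice call for Acly was lost with the replicate block (-3.84, adjusted p = 0.0937 by limma), and its difference was -4.05 to -3.63 with 1 library left out. Of 293 values of the 23 genes given in full, 271 kept direction and side of the threshold, 4 became calls and 18 reversed. Reversed were Elovl2 (0.00161) and Dgat2 (0.000675) with TMM, Elovl2 (0.00794) with quantile scaling, and Elovl2 (0.12), Acadm (0.22) and Pparg (-0.32) after thinning. With 1 library left out, the range was -0.26 to 0.45 for Fabp9 (negative without KO replicate 2 and, at -0.0638, WT replicate 2), -0.20 to 0.20 for Elovl2 (positive without KO replicate 2 and, at 0.0861, WT replicate 1) and -0.11 to 0.10 for Dgat2 (positive without KO replicate 2 and, at 0.0128, WT replicate 2). It was -0.50 to 0.13 for Plin2 (positive without KO replicate 2), -0.0442 to 0.0163 for Cpt1b (positive without KO replicate 1 and, at 0.00256, WT replicate 2), -0.82 to 0.0823 for Acadm (positive without KO replicate 1) and -1.18 to 1.19 for Pparg (negative without KO replicate 1 and, at -1.17, WT replicate 2). The cause of these changes was not tested. A fit without 1 library takes the spread of the remaining pair for the lone library too. The shallow KO libraries limit what can be seen of genes under 10 CPM.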
